A study of Mus musculus with 6 samples.

Results

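The 10 genes described here encode RNA-binding proteins of the splicing switch that accompanies the passage from neural progenitor to neuron: Ptbp1 and Ptbp2, Rbfox2 and Rbfox3, Nova1 and Nova2, the neuronal Elavl genes Elavl2, Elavl3 and Elavl4, and Srrm4. They are listed by name for this role and are 10 of the 51733 gene symbols counted. The rule itself uses no measured value, but the list was chosen with earlier results of these data known. RNA was sequenced from Sox2-positive neural progenitor cells (NPCs) sorted from the neural tubes of E13.5 mice. The control group held 3 libraries from wildtype siblings, and the Ybx1-KO group held 3 libraries from embryos homozygous for the Ybx1 null allele tm1Ley, labelled YBX1KO, both on a C57BL/6 background. According to the study's methods the cells were sorted by a Sox2-eGFP reporter, which both groups carry. The methods list the reporter line on a mixed background, so the embryos may not be C57BL/6 alone. The protocols in the labels cover cultured cells as well, but the cell type and source given for each of the 6 libraries are the same, a neural progenitor cell from neural tubes. The null allele is constitutive, so the knockout is not limited to neural cells. The number and sex of the embryos behind a library are not given in the sources used here. The titles of control 1 and control 2 share a number, as do those of Ybx1-KO 1 and Ybx1-KO 2, so p-values measure the spread between these libraries, which may not all come from separate litters. The paper calls the controls siblings, but no title number is shared between the groups, and the title of Ybx1-KO 3 holds none. What the numbers stand for is not given, so any difference they mark cannot be told apart from genotype.

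In progenitors, Ptbp1 binds pyrimidine-rich tracts and represses many exons that neurons include, among them an exon of Ptbp2 without which the Ptbp2 transcript is degraded. As cells become neurons, the microRNA miR-124 lowers Ptbp1, Ptbp2 protein accumulates, and neuronal activators of splicing such as Srrm4, Nova1, Nova2, Rbfox3 and the neuronal Elavl proteins appear. The transcription factor REST restrains several neuronal genes, including Srrm4, outside neurons. Ybx1, the gene deleted here, encodes a nucleic acid-binding protein named for the Y-box, a promoter element with a CCAAT core. The comparison asks whether transcript levels of the switch regulators differ between NPCs with and without Ybx1. The counts are per gene, so they hold the level of each regulator's RNA and not the inclusion of any exon.

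The promoter sequences below show which members carry the letters of a CCAAT box or a Y-box just before an annotated start, since this is the element for which the deleted protein is named. Each is the stretch of 250 bases before a RefSeq start on GRCm38.p6, written 5′ to 3′ on the gene's strand, with CCAAT (or ATTGG, the same letters on the other strand) in capitals. They belong to Ptbp1 (chr10:79854182-79854431, plus strand), Ptbp2 (chr3:119783389-119783638, minus strand), Elavl3 (chr9:22052024-22052273, minus strand), Elavl4 (the second of 4 annotated promoters, chr4:110287528-110287777, minus strand) and Elavl2 (the second of 6, chr4:91376497-91376746, minus strand).
Ptbp1: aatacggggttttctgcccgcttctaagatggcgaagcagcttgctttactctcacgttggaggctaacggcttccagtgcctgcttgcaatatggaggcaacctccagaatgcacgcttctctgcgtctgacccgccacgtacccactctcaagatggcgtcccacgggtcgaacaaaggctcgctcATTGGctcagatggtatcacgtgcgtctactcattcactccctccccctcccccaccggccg
Ptbp2: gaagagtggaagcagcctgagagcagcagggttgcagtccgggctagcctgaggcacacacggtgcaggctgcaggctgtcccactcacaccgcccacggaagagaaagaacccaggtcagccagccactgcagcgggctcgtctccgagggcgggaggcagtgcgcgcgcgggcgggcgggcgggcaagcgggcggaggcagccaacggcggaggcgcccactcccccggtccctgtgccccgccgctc
Elavl3: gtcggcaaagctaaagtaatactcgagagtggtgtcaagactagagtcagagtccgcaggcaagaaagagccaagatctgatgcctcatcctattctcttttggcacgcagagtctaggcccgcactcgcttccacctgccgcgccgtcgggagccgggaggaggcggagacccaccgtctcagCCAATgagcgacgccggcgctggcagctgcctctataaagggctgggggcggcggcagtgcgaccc
Elavl4: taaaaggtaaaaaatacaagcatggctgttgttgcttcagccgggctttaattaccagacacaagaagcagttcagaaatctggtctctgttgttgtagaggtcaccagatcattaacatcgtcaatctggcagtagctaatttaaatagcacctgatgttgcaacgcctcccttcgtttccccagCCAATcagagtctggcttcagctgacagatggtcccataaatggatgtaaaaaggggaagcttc
Elavl2: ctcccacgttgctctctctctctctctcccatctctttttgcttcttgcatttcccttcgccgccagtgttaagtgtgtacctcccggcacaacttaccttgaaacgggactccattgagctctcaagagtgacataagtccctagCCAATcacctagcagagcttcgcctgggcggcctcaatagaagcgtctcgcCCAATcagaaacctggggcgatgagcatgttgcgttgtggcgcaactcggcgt

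RefSeq gave 17 promoters for 9 of the 10 members, with none for Rbfox2. CCAAT on either strand was present in 11 of these 17 promoters (64.7%) and in 5 members, namely Elavl2, Elavl3, Elavl4, Rbfox3 and Ptbp1, against 33.8% of the 32851 promoters in the table and 37.5% of its 27025 genes. The promoters of 1 gene overlap each other, so the share of promoters counts some letters more than once. The Y-box was searched as CTGATTGG on either strand, and each match also holds a CCAAT match. It was found in 4 promoters, promoters 2 and 3 of Elavl2 and promoters 2 and 3 of Elavl4, against 3.83% of all promoters. These overlap in pairs, so each site is counted again. By gene, Elavl2 and Elavl4 were the only members with a match, against 4.43% of all genes. In the sequence of Elavl4 the CCAAT of this match begins 64 bases before the start, and in that of Elavl2 it begins 53 bases before it. In Elavl3 the CCAAT began 66 bases before the start, and in Ptbp1 the reverse ATTGG began 62 bases before it. The windows of Ptbp2, Nova1, Nova2 and Srrm4 did not hold these letters. The GC content of the members' promoters ranged from 44% to 73.2%.

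The libraries differed in depth and quality in ways that touch every value below. Control libraries held 20841990 to 23883542 counts on genes and Ybx1-KO libraries 4743279 to 13321952, so that a floor of 3 counts stood at 0.140 to 0.426 CPM (counts per 1000000 counts on tested genes, with the library size scaled as below). The shallowest library, Ybx1-KO 3, stood apart. Only 7.22% of its tallied read pairs fell on genes, against 18.0% to 24.7% in the others, 59.5% fell outside genes, against 30.6% to 46.7%, and 1944 olfactory, vomeronasal and taste receptor genes, which NPCs are not known to use, took 3162 CPM of it, against 24.5 to 108 in the others. Fold changes of the members and medians of the lists are therefore given with and without it. Unless library totals are named, the CPM values below use library sizes scaled with TMM, the trimmed mean of M values. These limits cover counting error only, and the paper's methods describe no molecular identifiers for the read pairs.

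Ybx1 itself was lower in all Ybx1-KO libraries than in any control. It stood at 239, 531 and 306 CPM in control 1, 2 and 3, and at 126, 55.3 and 9.66 CPM in Ybx1-KO 1, 2 and 3. Ybx1-KO 1 thus kept far more Ybx1 counts than the other knockout libraries. The log2 fold change was -2.49 ± 0.675 (SE, n = 3 per group), and edgeR (quasi-likelihood, adjusted over all tested genes) gave an adjusted p of 0.301, which ranged from 0.0214 to 0.639 over the other settings tried. Without Ybx1-KO 1 it was -3.46, at an adjusted p of 0.0278 by edgeR. The counts cover the whole gene, and the part that the allele removes is not given in the sources used here. The exact permutation test, two-sided, gave p = 0.1, the smallest that 3 libraries against 3 allow. The labelled cell type was checked against its markers. Sox2 was present at 17.5 to 50.6 CPM in all 6 libraries, and all 11 neural progenitor markers had counts in every library, with a summed level of 1945 to 2142 CPM in control and 1543 to 2241 CPM in Ybx1-KO. Single markers of this list went both ways. Nes (53.4 to 131 CPM in control, 168 to 287 in Ybx1-KO) and Hes5 (20.5 to 30.3 against 41.5 to 71.1) lay above all controls. Slc1a3 (37.0 to 93.2 against 14.5 to 23.9) lay below them, and the other progenitor markers overlapped. All 15 neuron markers had counts in every library too, among them Dcx, a microtubule protein of migrating young neurons, at 276 to 1556 CPM, so the sorted cells also held RNA of neurons.

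Across the 10 members no transcript level differed between Ybx1-KO and control beyond the spread between libraries. Fitted log2 fold changes, Ybx1-KO over control, ran from -0.64 for Rbfox3 to 0.52 for Nova2, with standard errors of 0.422 to 0.580, and all 10 of the 95% intervals included 0. Taken over the members, the intervals reached from -1.53 to 1.74. For each member, a true difference inside its own interval was not excluded with these libraries. All 10 passed the filter of a mean FPKM above 1 (the count scaled by exon length and by the library's total on genes) in both groups, and their raw counts ranged from 129 to 8221. None was called at an adjusted p below 0.05 with a fold change above 1.5, adjusted p ran from 0.496 to 0.968, and the smallest unadjusted p was 0.150. Over the 21328 genes tested, edgeR called 0 (0%), while 909 (4.26%) were lower and 1484 (6.96%) higher in Ybx1-KO at an unadjusted p below 0.05. DESeq2 called 214 genes, none of them a member, and limma-voom, the study's own tool, called 0, with 1655 genes at an unadjusted p below 0.05. At these thresholds the paper itself reports genes changed in both directions, which the limma-voom run here did not recover. The cause of this difference was not tested.

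The libraries of the 2 groups overlapped for all 10 members. The background is 8.16% of tested genes with all Ybx1-KO libraries below all control libraries and 4.98% with all of them above. Fold changes below 0 were fitted for 6 of 10 members, against 38.7% of all tested genes, and the members' median log2 fold change was -0.17, against 0.31 for all tested genes. Of the tested genes 7233 passed the filter in Ybx1-KO alone and 951 in control alone, which in part fixes the direction of this background. With filters that do not look at the groups' means, CPM above 1 in at least 3 libraries or filterByExpr, the median of all tested genes was 0.075 or 0.081 and that of the members -0.087 or -0.11. The members have longer transcripts than most genes. Their median exon length was 8226.5 bases, against 2691 bases for the genes tested, 71.4% of which were shorter than the shortest member, Ptbp1. Across tested genes the log2 fold change and the exon length had a Spearman correlation of -0.43, and genes are not independent replicates. With offsets adjusted for exon length the members' median log2 fold change was 0.076 and 5 of 10 were below 0, so the direction of the median was not stable to this choice. Without Ybx1-KO 3 the members' median was 0.13, with 3 of 10 below 0, and that of all tested genes was -0.067, or 0.17 and 0.013 with the filter applied again, so the members stood above the background there and below it with all 6 libraries. Without control 2 the members' median was 0.15. It stayed below 0 when any other library was left out, at -0.14 without control 1 and -0.31 without control 3. Without Ybx1-KO 1 it was -0.28, and without Ybx1-KO 2 it was -0.13. For the members whose value without Ybx1-KO 3 is not given with them below, it was -0.13 for Ptbp2, -0.29 for Rbfox2, -0.42 for Rbfox3, 0.17 for Nova1, 0.88 for Nova2 and 0.35 for Elavl4.

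**Figure D1:**
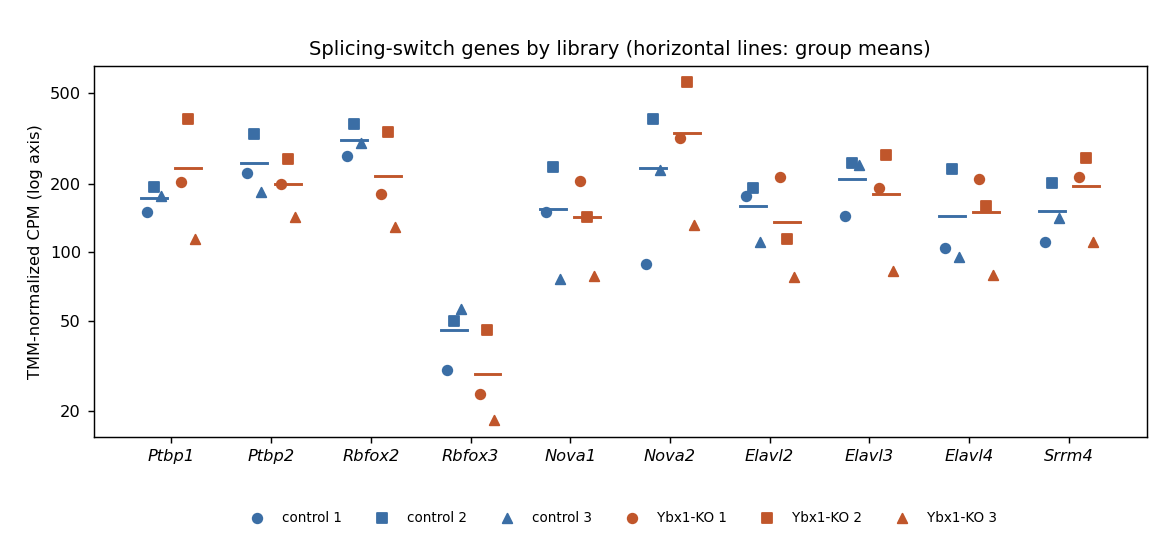
TMM-normalized CPM (log axis) of the 10 splicing-switch genes in each of the 6 libraries, control in blue and Ybx1-KO in orange, with a symbol per library and a horizontal line at each group mean (n = 3). Groups overlap for every gene, control 2 or Ybx1-KO 2 is the highest library for 8 of the 10, and Ybx1-KO 3 is the lowest for 7.

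Ptbp1 and Ptbp2 are the polypyrimidine tract-binding proteins at the centre of the switch. Ptbp1 (chromosome 10, 79854427 to 79864771, plus strand, GRCm38) had 150.05, 193 and 178 CPM in control 1, 2 and 3, and 204, 385 and 114 CPM in Ybx1-KO 1, 2 and 3. The highest and the lowest of the 6 values were thus both in the Ybx1-KO group. The group means were 174 ± 21.8 and 234 ± 138 CPM (SD, n = 3), and the log2 fold change was 0.43 ± 0.471 (SE, edgeR, adjusted p = 0.670). It rested on single libraries, being -0.13 without Ybx1-KO 2 and 0.73 without Ybx1-KO 3. Without Ybx1-KO 3, both remaining Ybx1-KO libraries lay above all controls, at an adjusted p of 0.533 by edgeR. Annotated exons of the antisense genes E130317F20Rik, Plppr3 and Gm17134 cover 6.22%, 5.3% and 9.22% of the exon bases of Ptbp1, and the strand setting of the counting is not given in the sources used here, so the counts of these genes may not be separate.

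Ptbp2 (chromosome 3, 119718742 to 119784466, minus strand), the neuronal paralog of Ptbp1, had 223, 332 and 185 CPM in control 1, 2 and 3 and 200.02, 258 and 144 CPM in Ybx1-KO 1, 2 and 3. Its groups interleaved, with means of 247 ± 76.0 and 200.5 ± 57.2 CPM (SD, n = 3). The log2 fold change was -0.30 ± 0.437 (SE, edgeR, adjusted p = 0.756) and stayed below 0 in all 16 other settings, from -0.52 to -0.026.

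Because both genes are read in the same library, the ratio of their FPKM does not depend on how libraries are scaled to each other. Ptbp2 stood at 0.768, 0.887 and 0.539 of the FPKM of Ptbp1 in control 1, 2 and 3, and at 0.507, 0.346 and 0.651 in Ybx1-KO 1, 2 and 3. Ptbp2 was below Ptbp1 per length in all 6 libraries, and the groups overlapped, since Ybx1-KO 3 lay above control 3. The mean ratio was 0.731 ± 0.177 in control and 0.501 ± 0.152 in Ybx1-KO (SD, n = 3), a difference of -0.56 on the log2 scale. Leaving out 1 library at a time gave differences from -0.77 to -0.32, always lower in Ybx1-KO. The ratio is not free of exon length, which was 4740 bases for Ptbp1 and 9175 bases for Ptbp2. With offsets adjusted for exon length, the log2 fold change (edgeR) was 0.48 for Ptbp1 and -0.073 for Ptbp2. The ratio is given without a test, and the part of length in it was not tested.

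**Figure D2:**
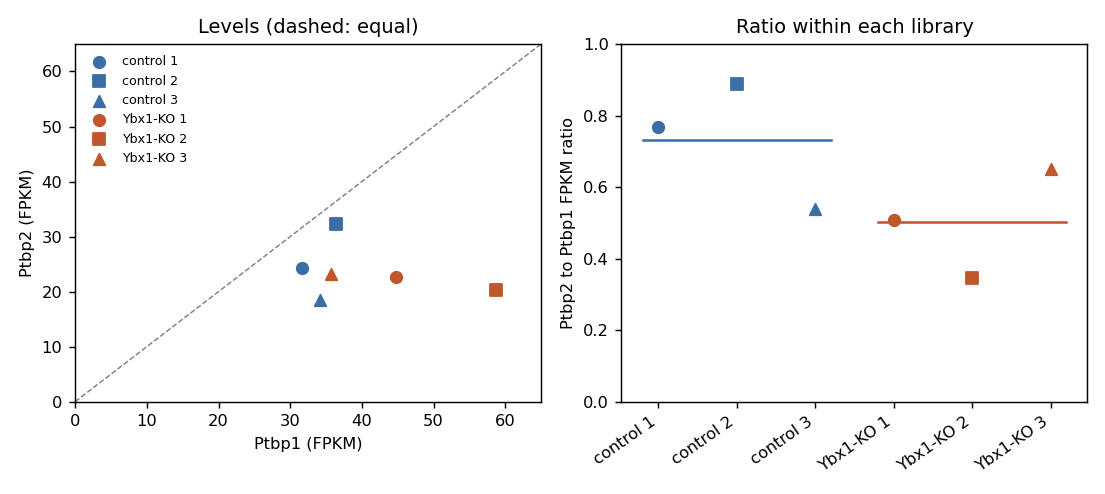
Left, FPKM of Ptbp2 against FPKM of Ptbp1 in each library, with a dashed line where both are equal. Right, the Ptbp2 to Ptbp1 FPKM ratio by library, with horizontal lines at the group means (0.731 in control, 0.501 in Ybx1-KO, n = 3 each). All 6 libraries lie below the line of equality, and Ybx1-KO 3 lies within the control range of ratios.

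Rbfox proteins promote or repress exons depending on whether they bind downstream or upstream of them. Rbfox2 (chromosome 15, 77078990 to 77307004, minus strand), which is made in progenitors and neurons, had 265, 368 and 302 CPM in control and 182, 339 and 129 CPM in Ybx1-KO. Ybx1-KO 2 fell within the control range and the other 2 knockout libraries below it. The means were 311 ± 52.0 and 217 ± 109 CPM (SD, n = 3), and the log2 fold change was -0.52 ± 0.463 (SE, edgeR, adjusted p = 0.599), staying between -1.003 and -0.25 in the other settings. Scaled by library totals alone, Rbfox2 was the 1 member without overlap, with 265, 329 and 276 CPM in control and 189, 245 and 192 CPM in Ybx1-KO, at an adjusted p of 0.510 by edgeR.

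Rbfox3 (chromosome 11, 118489762 to 118911597, minus strand) encodes the NeuN antigen of postmitotic neurons and was the lowest member in both groups. Its libraries held 30.5, 49.98 and 56.4 CPM in control and 23.9, 45.7 and 18.3 CPM in Ybx1-KO. Ybx1-KO 1 and Ybx1-KO 3 lay below all controls, and Ybx1-KO 2 lay between control 1 and control 2. The means were 45.6 ± 13.51 and 29.3 ± 14.5 CPM (SD, n = 3). The log2 fold change of -0.64 ± 0.422 (SE, edgeR) had the smallest adjusted p of the members, 0.496, and an exact permutation p of 0.2. It stayed below 0 in the other settings, from -1.11 to -0.39, and without Ybx1-KO 2 its unadjusted p was 0.0201 at an adjusted p of 0.202, in edgeR. The FPKM of Rbfox3 was 0.161, 0.190 and 0.261 of that of Rbfox2 in control 1, 2 and 3, and 0.184, 0.188 and 0.198 in the Ybx1-KO libraries, with all 3 knockout ratios inside the control range.

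Nova1 and Nova2 bind clusters of YCAY motifs and regulate exons of synaptic and axon guidance transcripts. Nova1 (chromosome 12, 46694517 to 46818929, minus strand) had 151, 237 and 76.6 CPM in control and 207, 142 and 78.9 CPM in Ybx1-KO, with the whole knockout range inside that of control. The log2 fold change was -0.12 ± 0.485 (SE, edgeR, adjusted p = 0.926), and it changed sign in 5 of 16 other settings. Nova2 (chromosome 7, 18925888 to 18965319, plus strand), which is prominent in the developing cortex, had 89.0, 385 and 231 CPM in control and 317, 559 and 133 CPM in Ybx1-KO. It was the most variable member, with control 2 at 4.32 times control 1 and Ybx1-KO 2 at 4.22 times Ybx1-KO 3. The group means were 235 ± 148 and 336 ± 214 CPM (SD, n = 3), with a log2 fold change of 0.52 ± 0.580 (SE, edgeR, adjusted p = 0.681) that became -0.064 without Ybx1-KO 2 and 1.07 without control 2. The antisense gene Gm26821 covers 31.7% of the exon bases of Nova2, so part of its counts may not be its own. Nova1 to Nova2 FPKM ratios ran from 0.317 to 1.62 in control and from 0.244 to 0.624 in Ybx1-KO, and overlapped.

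The neuronal Elavl proteins bind U-rich elements, stabilise their targets and regulate their splicing, and Elavl3 and Elavl4 are widely used as marks of new neurons. Elavl2 (chromosome 4, 91250763 to 91400785, minus strand) had 178, 192 and 111 CPM in control and 214, 115 and 77.6 CPM in Ybx1-KO, so that the knockout group held both the highest and the lowest library. Its log2 fold change was -0.24 ± 0.452 (SE, edgeR, adjusted p = 0.811) and 0.025 without Ybx1-KO 3. Elavl3 (chromosome 9, 22015005 to 22052023, minus strand) had 144, 247 and 242 CPM in control and 192, 268 and 82.8 CPM in Ybx1-KO. Again both extremes were knockout libraries, and the log2 fold change of -0.22 ± 0.476 (SE, edgeR, adjusted p = 0.839) was 0.10 without Ybx1-KO 3. Elavl4 (chromosome 4, 110203722 to 110351909, minus strand) had 105, 233 and 95.1 CPM in control and 210.3, 160.0 and 79.3 CPM in Ybx1-KO, with a log2 fold change of 0.055 ± 0.478 (SE, edgeR, adjusted p = 0.968), the closest to 0 of the 10. Elavl1, the member of the same family that most tissues use, had a log2 fold change of -0.21 ± 0.422 (SE, edgeR, adjusted p = 0.827). The summed FPKM of the neuronal Elavl genes stood at 4.85, 5.62 and 6.13 times that of Elavl1 in control and at 7.94, 4.99 and 4.57 times in Ybx1-KO, a mean of 5.53 ± 0.644 against 5.83 ± 1.84 (SD, n = 3). Control values thus lay within the range of the knockout values.

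Srrm4 (chromosome 5, 116439275 to 116591817, minus strand), the activator of neuronal microexons, had 111, 201 and 142 CPM in control and 214, 260.2 and 112 CPM in Ybx1-KO. Ybx1-KO 1 and Ybx1-KO 2 lay above all controls, and Ybx1-KO 3 lay beside the lowest. The means were 151 ± 45.8 and 195 ± 76.0 CPM (SD, n = 3) and the log2 fold change was 0.37 ± 0.445 (SE, edgeR, adjusted p = 0.706). It stayed above 0 in the other settings, from 0.10 to 0.66, with 0.63 and an adjusted p of 0.601 by edgeR without Ybx1-KO 3.

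**Figure D3:**
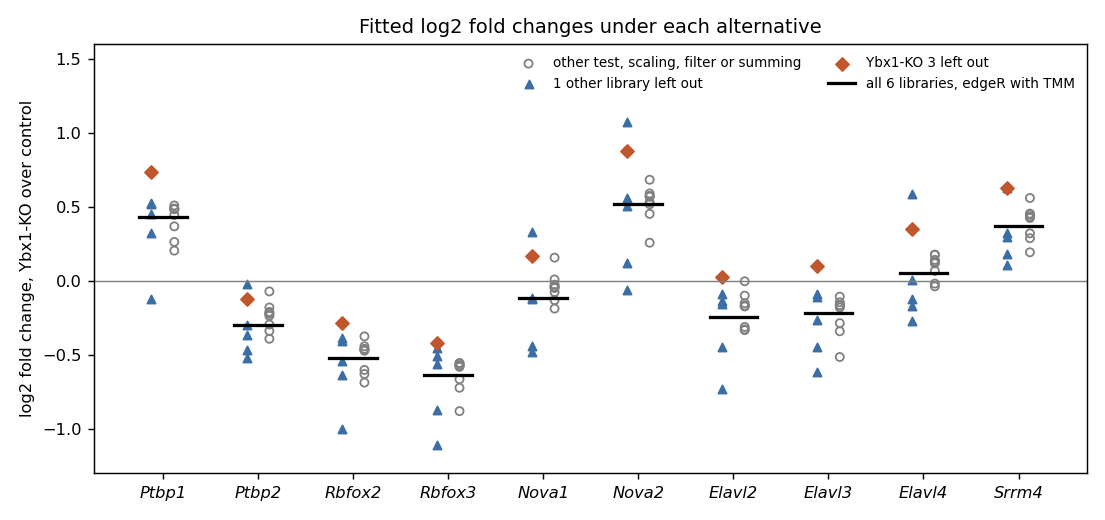
Fitted log2 fold change of each member, Ybx1-KO over control, in the analysis of all 6 libraries with edgeR and TMM (black line), with another test, scaling, filter or summing (open circles), without 1 library other than Ybx1-KO 3 (blue triangles) and without Ybx1-KO 3 (orange diamonds). Ptbp2, Rbfox2 and Rbfox3 stay below 0 and Srrm4 stays above 0, while the other 6 members cross 0 in at least 1 setting.

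Per length, and ordered by mean FPKM in control, the levels were 35.6 ± 4.21 for Rbfox2, 34.1 ± 2.40 for Ptbp1, 28.4 ± 6.42 for Elavl3, 25.6 ± 15.2 for Nova2, 25.02 ± 6.99 for Ptbp2, 24.8 ± 12.2 for Elavl4, 18.1 ± 5.13 for Elavl2, 16.5 ± 8.16 for Nova1, 16.2 ± 4.11 for Srrm4 and 7.26 ± 1.84 for Rbfox3 (SD, n = 3). Only the step from Srrm4 to Rbfox3 separated neighbours whose libraries did not overlap. In Ybx1-KO the order by mean FPKM was Ptbp1 at 46.4 ± 11.6, Nova2 at 37.1 ± 12.6, Elavl4 at 27.97 ± 10.9, Rbfox2 at 25.6 ± 3.90, Elavl3 at 24.99 ± 6.21, Srrm4 at 22.1 ± 3.29, Ptbp2 at 22.1 ± 1.53, Elavl2 at 16.9 ± 8.74, Nova1 at 16.6 ± 6.98 and Rbfox3 at 4.88 ± 0.722 (SD, n = 3). There too only the last step, from Nova1 to Rbfox3, had no overlap. In both groups Ptbp1, the regulator of the progenitor state, was thus among the most abundant of the members per length and the NeuN gene the least.

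The spread among libraries of the same group was wide and shared between members. In control, the highest library stood 1.29 to 4.32 times above the lowest, and for 8 of 10 members this factor exceeded the fold between the group means. By TMM-scaled CPM, control 2 or Ybx1-KO 2 was the highest of the 6 libraries for 4 members each, and Ybx1-KO 3 was the lowest for 7. Scaled by library totals alone, Ybx1-KO 3 was the lowest for only 1 member. The summed TMM-scaled CPM of the 15 neuron markers was 4403, 7301 and 5905 in control 1, 2 and 3. It was 6373, 5181 and 2444 in Ybx1-KO 1, 2 and 3. Control 2 was the highest and Ybx1-KO 3 the lowest there as well, while Ybx1-KO 2 lay inside the control range. Ybx1-KO 3 also had the largest TMM factor, 1.57, which lowers its CPM, and the part of scaling in these sums was not tested. In bulk RNA, fewer neurons and less neuronal RNA per cell cannot be told apart.

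The libraries also differed in RNA of regional genes and of markers of other cell types. The 8 forebrain regional genes summed to 1170 and 1243 CPM in control 1 and control 3, but to 149 CPM in control 2 and 253, 197 and 70.9 CPM in Ybx1-KO 1, 2 and 3. Conversely, the 15 caudal Hox genes, which mark hindbrain and spinal cord, summed to 68.8 and 177 CPM in control 1 and control 3, to 609 CPM in control 2 and to 791, 791 and 342 CPM in Ybx1-KO. Control 2 therefore stood with the Ybx1-KO libraries in both sums. Among the forebrain genes, Emx2 and Lhx2 did not follow the sum, at 48.3 and 157 CPM in Ybx1-KO 1 against 24.3 and 162 CPM in control 1. The other genes of that list did. In bulk RNA, a different regional make-up and a changed expression of these genes cannot be told apart. The 7 mesenchyme markers summed to 885, 135 and 220 CPM in control and to 114, 126 and 77.7 CPM in Ybx1-KO, without overlap. The remaining lists overlapped between groups, at 523 to 1219 CPM against 204 to 1234 CPM for 9 erythroid markers, 23.6 to 43.0 against 31.4 to 138 CPM for 4 neural crest and Schwann markers, 19.4 to 44.9 against 10.7 to 39.4 CPM for 4 endothelial markers and 8.33 to 26.6 against 3.52 to 36.7 CPM for 4 macrophage markers. No marker was at 0 in all libraries. The part of region and of other cells in the members' values was not tested.

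Other regulators of tissue-specific splicing, which work on many of the same exons, were read in the same fit. Of 22 such genes 21 were tested, with Mbnl3 below the filter. None was called by edgeR. At an unadjusted p below 0.05 (edgeR), 4 were lower and 1 higher in Ybx1-KO, against 4.26% and 6.96% of all tested genes. By TMM-scaled CPM, 5 (23.8%) had all Ybx1-KO libraries below all controls and 0 above, against 8.16% and 4.98% of all tested genes. Their median log2 fold change was -0.31, and 14 of 21 were below 0. The median was -0.0041 without Ybx1-KO 3, 0.031 there with the filter applied again, and -0.075 with offsets adjusted for exon length. Rbfox1, the neuronal paralog of Rbfox2 and Rbfox3, had 69.8, 98.8 and 79.7 CPM in control and 27.9, 46.4 and 19.6 CPM in Ybx1-KO, so the highest knockout library stayed well below the lowest control. Its log2 fold change was -1.40 ± 0.407 (SE, n = 3 per group), with an adjusted p of 0.356 in edgeR and of 0.0323 to 0.787 over the other settings.

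Khdrbs2, which encodes the neuronal splicing protein SLM1, showed the smallest adjusted p of these genes. It passed the filter in control alone, the group where it was high, so the filter in part fixes its direction. It had 41.0, 23.96 and 29.9 CPM in control and 9.64, 6.75 and 8.95 CPM in Ybx1-KO, with a log2 fold change of -1.90 ± 0.415 (SE, edgeR, adjusted p = 0.183, range over other settings 0.00792 to 0.787). Celf2, a CUG-binding regulator, had 552, 229 and 373 CPM in control and 139, 133 and 95.8 CPM in Ybx1-KO, with a log2 fold change of -1.65 ± 0.464 (SE, edgeR, adjusted p = 0.332, range 0.00473 to 0.787). DESeq2 called Khdrbs2, Celf2 and Rbfox1. Celf4 had 171, 229 and 191 CPM in control and 128, 109 and 61.5 CPM in Ybx1-KO (log2 fold change -0.98, edgeR, adjusted p = 0.444). These 4 genes had no overlap between the groups under TMM scaling or library totals. Khdrbs3, a relative of Khdrbs2, had 46.1, 35.1 and 58.7 CPM in control and 31.5, 29.3 and 21.2 CPM in Ybx1-KO, and its groups overlapped when scaled by library totals. Msi1, an RNA-binding protein of neural stem cells, was the 1 gene of the list with a higher value at an unadjusted p below 0.05, with 100.5, 253 and 166 CPM in control and 398, 569 and 182 CPM in Ybx1-KO (log2 fold change 1.15 ± 0.513, SE, edgeR, adjusted p = 0.444). Its groups overlapped by TMM-scaled CPM through Ybx1-KO 3 and not when scaled by library totals.

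**Figure D4:**
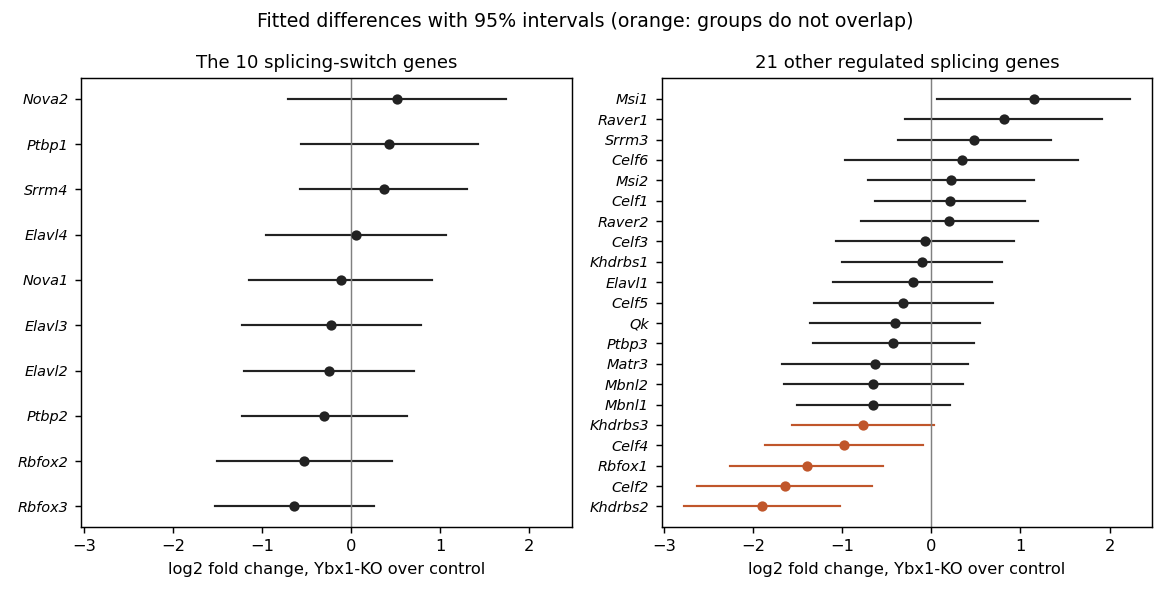
Fitted log2 fold change, Ybx1-KO over control, with its 95% interval, for the 10 members (left) and 21 other regulated splicing genes (right), with genes whose libraries do not overlap between groups in orange. No member is orange and all member intervals include 0, while Khdrbs2, Celf2, Rbfox1, Celf4 and Khdrbs3 on the right are orange with fitted values below 0, and the interval of Khdrbs3 includes 0.

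General splicing factors, the SR proteins, hnRNPs and spliceosome subunits that all cells use, give the level of the machinery on which the members act. All 30 were tested, 17 with a log2 fold change below 0, with a median of -0.13, which was 0.069 without Ybx1-KO 3, and 0 called by edgeR. Groups did not overlap by TMM-scaled CPM for 13.3% of the list, against 13.1% of all tested genes. At an unadjusted p below 0.05 (edgeR), 1 was higher and 0 lower, against 6.96% and 4.26% of all tested genes. This was U2af1, which recognises the end of the intron, at 19.1, 13.7 and 20.98 CPM in control and 53.9, 24.6 and 28.1 CPM in Ybx1-KO (log2 fold change 0.99, edgeR, adjusted p = 0.444). Its groups, and those of Srsf3 and Srsf10, which lay below control in Ybx1-KO by TMM-scaled CPM, overlapped when scaled by library totals. Hnrnpa1 had 456, 402 and 361 CPM in control and 284, 222 and 168 CPM in Ybx1-KO (log2 fold change -0.85, edgeR, adjusted p = 0.450), without overlap in either scaling. Hnrnpa1 has many processed pseudogenes, so its count is uncertain.

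Upstream of the members, the list of REST, its corepressors and phosphatases, and the miR-124 host genes held 8 genes, all tested, with a median log2 fold change of 0.12 (0.35 without Ybx1-KO 3), 5 above 0, 0 called by edgeR and 0 at an unadjusted p below 0.05. Rest had 25.9, 36.4 and 15.3 CPM in control and 15.5, 31.6 and 28.3 CPM in Ybx1-KO, with a log2 fold change of -0.042 (edgeR, adjusted p = 0.972). Mir124a-1hg, a host transcript of miR-124, had 86.3, 130 and 103 CPM in control and 217, 203 and 66.4 CPM in Ybx1-KO, so that 2 knockout libraries lay above all controls and 1 below them all (log2 fold change 0.61, edgeR, adjusted p = 0.535). Rcor1 and Ctdspl had all Ybx1-KO libraries below control by TMM-scaled CPM, with log2 fold changes of -0.51 and -0.46, and overlapped when scaled by library totals. They are 25% of this short list, against 8.16% of all tested genes.

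Downstream, 16 transcripts that hold well-known exons under the members' control were all tested, and 12 had a log2 fold change below 0, with a median of -0.23 and 0 called by edgeR. The median was -0.045 without Ybx1-KO 3 and 0.066 with offsets adjusted for exon length. At an unadjusted p below 0.05 (edgeR), 3 were lower and 0 higher in Ybx1-KO, against 4.26% and 6.96% of all tested genes. Dab1, the adaptor of the reelin pathway, with exons regulated by Nova2, had 99.8, 76.1 and 87.3 CPM in control and 38.8, 31.8 and 26.7 CPM in Ybx1-KO, with a log2 fold change of -1.44 ± 0.372 (SE, edgeR, adjusted p = 0.287, range over other settings 0.00230 to 0.787). Dlg4, a postsynaptic scaffold transcript with an exon that Ptbp1 and Ptbp2 repress, had a log2 fold change of -0.17 (edgeR), and Agrn, an agrin transcript with Nova-dependent exons, of 0.065. These are changes of whole-gene levels, and the lower values concern total transcript and not any isoform.

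The genes whose log2 CPM followed that of 3 members most closely over the 6 libraries were found among 9182 tested protein-coding genes with a mean of at least 10 CPM. For Ptbp1 they were Fbrsl1 (Pearson r = 0.997), Ring1 (r = 0.988), a Polycomb component, and Gps2 (r = 0.986). For Elavl3 they were Camsap3 (r = 0.999), 4833439L19Rik (r = 0.996) and Mlec (r = 0.995), and for Srrm4 they were Spen (r = 0.997), Sh3pxd2b (r = 0.993) and Arid1a (r = 0.992). These values describe 6 points that share their libraries, depth and scaling, and no test was made of them.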

How the data were processed

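Per the labels, total RNA of Sox2-positive neural tube cells was made into stranded libraries and sequenced from both ends. The authors deposited raw counts per gene symbol and library, made with HTSeq 0.6.1p1 on a GENCODE annotation, without normalization. The submitters' processing notes name the builds mm10 and GRCm38.p5. The aligner and the strand setting are not given in the sources used here. The counter's 5 closing tallies stayed out of library sizes, and unused columns numbered 0.

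Exon lengths and coordinates came from GENCODE M21 (GRCm38), which matched 47624 of 51733 symbols, and 356 more by an older symbol. Genes entered the test if the mean FPKM of a group was above 1. Counts were normalized by TMM and tested with edgeR 4.0.16 (quasi-likelihood, Benjamini-Hochberg over 21328 genes) in R 4.3.3. Alternatives were limma-voom, the paper's tool (limma 3.58.1), DESeq2 1.42.0, other scalings and filters, offsets for exon length, summing by title number and leaving out each library. The smallest chi-square per degree of freedom between replicates was 50.04, so all replicates differed beyond counting noise. Promoters came from RefSeq on GRCm38.p6, and figures from matplotlib 3.10.9. The tests were also run on simulated data, and the outcome is not given here.

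The members and the lists were chosen with earlier results of these data known. Named were the members, Ybx1, genes of the other lists with an unadjusted p below 0.05 or no overlap (at most 6 per list, by p), and the 3 genes most alike to Ptbp1, Elavl3 and Srrm4. Rest, Mir124a-1hg, Elavl1, Dlg4 and Agrn were named for their role, after their values were seen. A few genes that meet this rule are not reported here.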

Additional observations from a re-analysis of the deposited data

How the results depend on the processing

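In the alternatives, 0 members were called in any of 16 settings, and 1 (Rbfox3, without Ybx1-KO 2) had an unadjusted p below 0.05. Ptbp2, Rbfox2 and Rbfox3 stayed lower and Srrm4 higher throughout, and the rest changed sign somewhere, in settings that were never past the threshold. Without Ybx1-KO 3 the log2 fold change was 0.025 for Elavl2, 0.10 for Elavl3 and 0.17 for Nova1, and with the filter applied again, a setting chosen after seeing the data, 0.065, 0.13 and 0.20. Elavl4 was -0.020 with no filter, -0.039 with libraries of a shared title number summed and -0.27 to 0.58 over leaving out 1 library. Nova1 was 0.0082 with library totals alone, 0.16 with offsets adjusted for exon length and -0.48 to 0.33 over leaving out 1 library. Over leaving out 1 library, Elavl2 was -0.73 to 0.025, Elavl3 -0.62 to 0.10, Nova2 -0.064 to 1.07 and Ptbp1 -0.13 to 0.73, with the lowest values of Nova2 and Ptbp1 without Ybx1-KO 2.

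Counts over all genes depended on the test and the libraries. DESeq2 called 214 genes (118 higher, 96 lower), edgeR without a filter 193 (113 and 80), and with libraries of a shared title number summed 105 (58 and 47). Leaving out 1 library called 0 to 419 genes (0 to 283 higher and 0 to 136 lower), with 419 without Ybx1-KO 2, 107 without Ybx1-KO 1, 71 without control 2 and 46 without Ybx1-KO 3, among genes admitted with that library, which became 0 of 15184 with the filter applied again (1995 at an unadjusted p below 0.05). Of the other regulated splicing genes DESeq2 called 3, edgeR without a filter called 1 (Khdrbs2) and leaving out 1 library 0 to 2, with 2 without Ybx1-KO 2 (Khdrbs2 and Rbfox1) and 1 without Ybx1-KO 1 (Khdrbs2). DESeq2 called 1 target transcript, Dab1. The median log2 fold change of all tested genes was 0.15 with limma-voom, 0.51 with library totals alone, 0.70 with no filter, 0.075 with a filter of CPM above 1 in at least 3 libraries, 0.081 with filterByExpr, -0.067 to 0.35 over leaving out 1 library and 0.013 without Ybx1-KO 3 with the filter applied again. The fewer genes tested under the stricter filters are part of their construction. The cause of the other changes was not tested.

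No paired analysis was possible because the labels give the groups no shared replicate numbers, and the numbers used here follow the accession order. Depth limits the knockout group, whose shallowest library held 4743279 counts on genes. The common biological coefficient of variation was 0.800, with 3 libraries per group. For each member, a true difference inside its own 95% interval was not excluded.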
